A study of Mus musculus with 2 samples.

Results

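Interferon-stimulated genes are the genes that cells switch on when interferon binds its receptors. Receptor-bound Janus kinases then activate Stat proteins, and the complex of Stat proteins with Irf9 binds a short DNA element, the interferon-stimulated response element (ISRE), in the promoters of these genes. Their products sense viral RNA, relay the response or act against the virus, and fibroblasts from embryos are a classical cell type for this response. The set held 39 listed genes, chosen by name as sensors, Stat and Irf factors and effectors, and 37 of them had a value, from 56 probe sets, out of 18193 genes with a value in the whole series. The other 2 were Ifi44, for which no probe set carried its symbol alone, and Isg15, whose probe set also carries the symbol Gm9706.

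The study measured mouse embryonic fibroblasts on Affymetrix arrays, 1 array per genotype. Phc2 L307R fibroblasts were homozygous for L307R, a missense change in the SAM domain through which the Polycomb protein Phc2 polymerises, and wild-type fibroblasts carried the unchanged gene. The cells of both genotypes were labelled C57BL/6, came from embryos at embryonic day 12.5 and were used at passage 1 in serum-containing medium, and the labels name no interferon, virus or other stimulus. The comparison asks how the SAM domain change alters expression, and here how these genes stood in unstimulated cells. The labels do not say how many embryos or cultures stand behind each array. With 1 array each there was no replicate error, so no test was possible: each difference below is one between 2 arrays, and only folds, counts and medians are given.

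Values are MAS5 signals on a linear scale, and each difference is a log2 ratio with wild type as the denominator, so that a positive one means higher in Phc2 L307R. The floor was 94.8, the higher of the median signals of the arrays, which were 94.3 in Phc2 L307R and 94.8 in wild type. Genes whose probe set exceeded the floor in either genotype are called measured, and a signal under the floor was raised to it, so that the ratio is then a bound. Of the 37 genes, 31 were measured, 28 of them above the floor on both arrays. Signals of different probe sets cannot be ranked against each other, so no gene's level is set against another's. The only error at hand is technical: log2 ratios of different probe sets of 1 gene had an SD of 0.32 over 5460 genes. All 12 fibroblast markers were measured on both arrays, among them Col1a1 at 21723.5 in Phc2 L307R and 16447.8 in wild type and Vim at 41326.6 in Phc2 L307R and 30906.8 in wild type. Of these markers 9 of 12 had a log2 ratio above 0, with a median of 0.41, from -0.34 (Pdgfrb) to 0.88 (Dcn).

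The set as a whole lay slightly higher in Phc2 L307R. Of the 31 measured genes, 25 had a log2 ratio above 0 and 6 below it, which is 80.6% above 0, against 59.1% of all 11408 measured genes. Their median log2 ratio was 0.23, against 0.06 over all measured genes and 0.41 over the fibroblast markers, and their quartiles were 0.05 and 0.51, against -0.14 and 0.24. With all ratios centred on the median of measured genes, 21 of the 31 were above 0 and the median was 0.17. Only Ifit1 was at least 2-fold higher, a difference that 0.579% of all measured genes reached, and no member was at least 2-fold lower, against 0.535% of all. At a threshold of 1.5-fold, 7 members were higher (Ifit1, Ifi27, Ifit3, Rtp4, Usp18, Irf7 and Isg20), against 4.2% of all measured genes, and none was lower, against 3.25%. Centring left 4 of these, Ifi27, Ifit1, Ifit3 and Rtp4, past 1.5-fold and put 1 gene past it on the lower side. Counting only genes above the floor on both arrays, 6 members were at least 1.5-fold higher, against 3.77% of all such genes. Measured against the technical SD, 10 members were higher by more than 0.32 and 2 were lower by more than that, while 19 lay within it. Of all measured genes 16.8% lay above that SD and 11% below it.

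**Figure D1:**
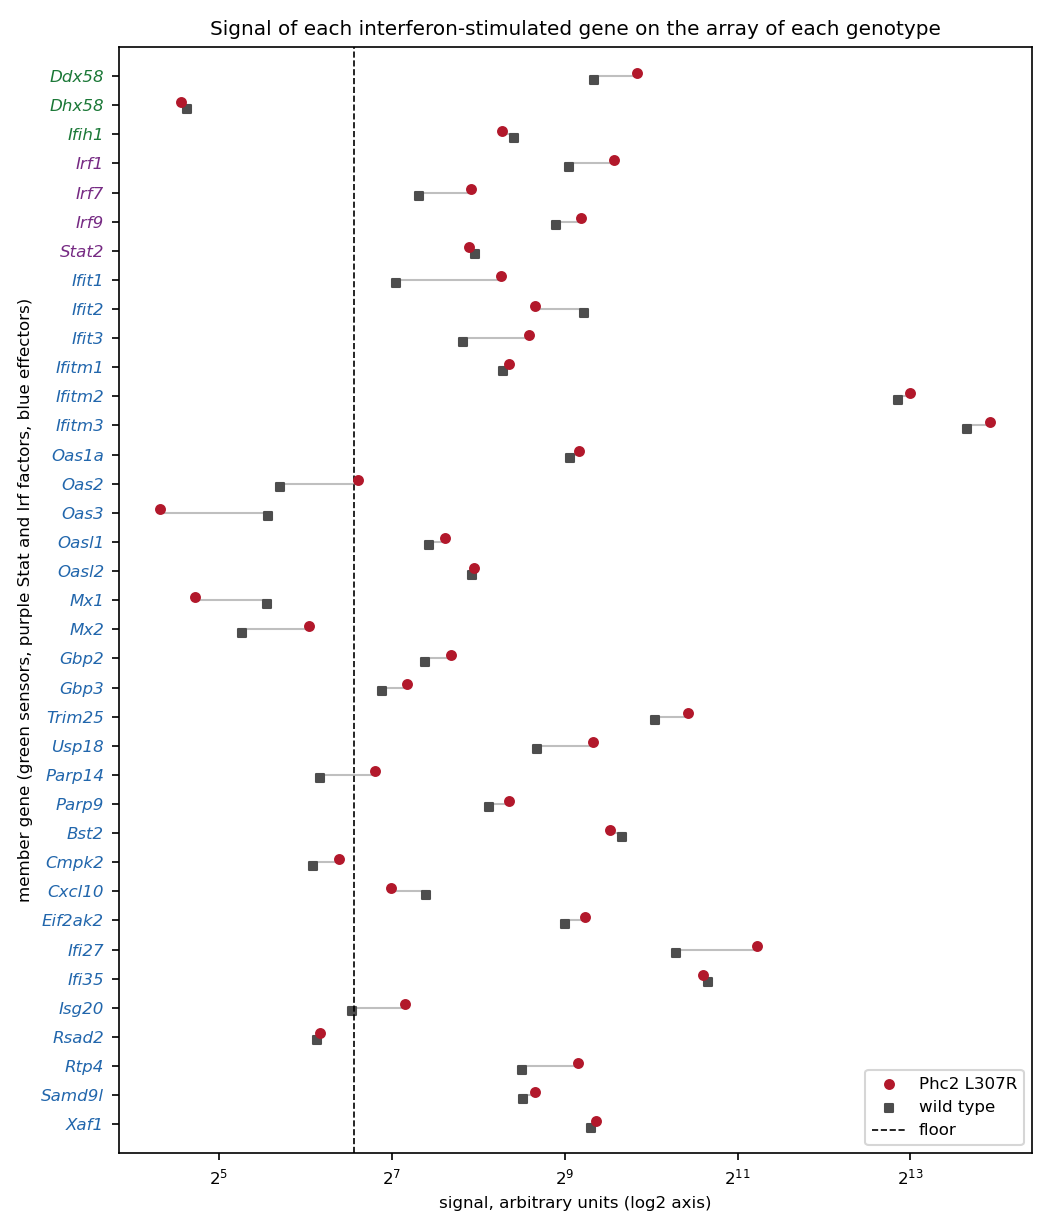
Signal of each of the 37 genes (log2 axis, arbitrary units) on the Phc2 L307R array (red circles) and on the wild-type array (grey squares), 1 array each, with the floor of 94.8 as a dashed line; gene names are coloured by role. Ifit1, Ifi27 and Ifit3 show the widest gaps with Phc2 L307R on the right among genes above the floor on both arrays, Ifit2 the widest with wild type on the right, and 6 genes lie wholly left of the line.

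Before the values by role, the ISRE letters are shown in promoters of members that differed in opposite directions or little, because this element is the one through which the interferon response is known to act. The sequences are RefSeq promoters (GRCm38.p6, 250 bases before to 50 after a gene's start), in which 30 of the 39 listed genes had an entry. They are printed 5′ to 3′ on the gene's strand, and capitals mark the ISRE letters searched for, GAAA followed after any 2 bases by a second GAAA, on either strand, in windows that end before the start. The longer capital runs of Oas1a and Bst2 are overlapping matches.
Ifit1 (chr19:34640765-34640833, plus strand): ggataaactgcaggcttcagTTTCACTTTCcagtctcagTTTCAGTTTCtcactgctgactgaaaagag
Ifit3 (chr19:34583363-34583392, plus strand): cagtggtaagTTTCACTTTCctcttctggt
Ifit3 (chr19:34583397-34583426, plus strand): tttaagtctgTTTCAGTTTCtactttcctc
Gbp2 (chr3:142620584-142620633, plus strand): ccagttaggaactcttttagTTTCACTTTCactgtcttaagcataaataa
Oas1a (chr5:120907526-120907552, minus strand): ttctcggGAAATGGAAACTGAAAatct
Bst2 (chr8:71537567-71537622, minus strand): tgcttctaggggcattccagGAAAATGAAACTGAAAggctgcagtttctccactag
Stat2 (chr10:128270256-128270305, plus strand): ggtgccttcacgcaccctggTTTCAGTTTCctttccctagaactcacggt
Cxcl10 (chr5:92349073-92349122, minus strand): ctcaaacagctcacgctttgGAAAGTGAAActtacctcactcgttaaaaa

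The match nearest the 5′ end began 104 bases before the start in Ifit1, 156 in Ifit3, 59 in Gbp2, 20 in Oas1a, 130 in Bst2, 222 in Stat2 and 213 in Cxcl10. The ISRE letters occurred on either strand in 16 of the 30 members with a promoter, which is 53.3%, against 3.99% of 27025 genes in the table. The letters TTCNNNGAA, the core of the element bound by Stat dimers (GAS), which read the same on both strands, occurred in 8 of the 30, or 26.7%, against 9.55% of all genes. The genes printed above were picked to cover both directions, so their mix of directions is not a result. Ifit1, Ifit3, Gbp2 and Oas1a had log2 ratios of 1.21, 0.76, 0.30 and 0.10, and Stat2, Bst2 and Cxcl10 had -0.07, -0.14 and -0.40. The 13 measured members with the ISRE letters had a median log2 ratio of 0.23, from -0.40 to 1.21, with 9 above 0. The 12 without them had a median of 0.16, from -0.57 to 0.60, with 10 above 0. Some measured members had no promoter entry and are in neither group. They were Ifi27 (0.93), Rtp4 (0.65), Usp18 (0.64), Parp9 (0.22), Parp14 (at least 0.24) and Oas2 (at least 0.05). Over all measured genes with a promoter, the 317 with the ISRE letters, members included, had a median of 0.10 and the 8947 without them one of 0.06. A match describes the letters in this window and is not a test of binding.

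The sensors are cytosolic helicases that recognise viral RNA, and they did not move together. Ddx58, which encodes RIG-I, the sensor of RNA with a free triphosphate end, read 914.1 in Phc2 L307R and 649.1 in wild type, a log2 ratio of 0.49. Its second measured probe set read 195.4 in Phc2 L307R and 131.1 in wild type, a log2 ratio of 0.58, so both pointed the same way, and 0.43 was the lowest value under any alternative processing. Ddx58 shares a chromosome with Phc2, at a distance of 361 measured genes. Ifih1, which encodes MDA5, the sensor of long double-stranded RNA, had 310.9 in Phc2 L307R and 339.7 in wild type, a log2 ratio of -0.13 that is well within the technical SD. Dhx58, which encodes LGP2, a regulator of both, was not measured: its brightest probe set by mean log2 signal read 23.7 in Phc2 L307R and 24.8 in wild type, and none of its probe sets passed the floor.

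Among the transcription factors, Irf7, Irf1 and Irf9 were higher in Phc2 L307R and Stat2 was level with wild type. Irf7, the factor that amplifies interferon production once it is induced, read 241.3 in Phc2 L307R and 159.7 in wild type, 1.51-fold higher at a log2 ratio of 0.60. Irf1, a factor induced mainly by interferon gamma, had 762.5 in Phc2 L307R and 531.2 in wild type, a log2 ratio of 0.52. Irf9, the DNA-binding subunit of the complex that reads the ISRE, had 583.9 in Phc2 L307R and 477.4 in wild type, a log2 ratio of 0.29 within the technical SD. These 3 genes each rest on 1 probe set, and each stayed above 0 under all 9 alternatives run on it. Stat2, the partner of Irf9, had 237.2 in Phc2 L307R and 249.1 in wild type at 1 probe set and 157.9 in Phc2 L307R and 151.0 in wild type at the other, log2 ratios of -0.07 and 0.06. The median of the 4 factors was 0.41.

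The Ifit genes, neighbours in 1 cluster whose tetratricopeptide proteins bind viral RNA or block its translation, held the highest and the lowest ratio of the set. Ifit1, which binds RNA that lacks host cap methylation, read 306.9 in Phc2 L307R and 132.7 in wild type, 2.31-fold higher at a log2 ratio of 1.21. Ifit3, which forms a complex with other Ifit proteins, had 384.8 in Phc2 L307R and 226.7 in wild type, 1.70-fold higher at 0.76. Ifit2, an Ifit protein that promotes cell death, went the other way, with 404.2 in Phc2 L307R and 600.1 in wild type, a log2 ratio of -0.57. Each of these genes has 1 probe set, so no second reading stands behind these differences. The wild-type signal of Ifit1 is near the floor, and it was no longer 2-fold higher when the floor was set at the 60th percentile of signals (0.80) or when the floor's value was added as a pseudocount (0.82). Ifit3 has a close copy, Ifit3b, whose transcripts its probes may share.

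Most measured genes of the other antiviral families differed by less than the technical SD. The Ifitm genes encode membrane proteins that block the entry of viruses by fusion. Ifitm3 read 15556.6 in Phc2 L307R and 12936.6 in wild type (log2 ratio 0.27), Ifitm2 had 8178.8 in Phc2 L307R and 7433.5 in wild type (0.14), and Ifitm1 had 326.5 in Phc2 L307R and 313.3 in wild type (0.06, which was below 0 in centred ratios). All 3 lie within the technical SD.
The Oas genes encode synthetases of 2-5A, the messenger that activates RNase L, together with the related Oasl proteins. Oas1a had 573.2 in Phc2 L307R and 533.2 in wild type, Oasl1 had 196.9 in Phc2 L307R and 173.2 in wild type, and Oasl2 had 248.2 in Phc2 L307R and 244.4 in wild type. Their log2 ratios were 0.10, 0.19 and 0.02, the last of them below 0 with loess and in centred ratios. Oas2 passed the floor in Phc2 L307R only, at 98.0 against 52.2 in wild type, a log2 ratio of at least 0.05. This value depended on the floor: it was -0.01 in centred ratios, 0.77 with the 40th percentile as floor and 0.91 without one. Oas3 lay below it at 20 in Phc2 L307R and 47.4 in wild type. Oas1a belongs to a family of close copies, whose transcripts its probes may share.

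Both dynamin-like Mx genes were below the floor. Mx1 read 26.5 in Phc2 L307R and 47.1 in wild type, and Mx2 read 65.8 in Phc2 L307R and 38.5 in wild type. C57BL/6 mice are known to carry a defective Mx1. The guanylate-binding proteins, large GTPases that act on pathogen vacuoles, were close to each other: Gbp2 had 205.8 in Phc2 L307R and 166.6 in wild type, and Gbp3 had 144.9 in Phc2 L307R and 118.3 in wild type, log2 ratios of 0.30 and 0.29. The second probe set of Gbp2, with the suffix _x_at for probes that can bind several transcripts, gave 89.2 in Phc2 L307R and 129.7 in wild type, a log2 ratio of -0.45 or lower, so the direction of Gbp2 was not shared by its probe sets and the mean of both was -0.07.

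The enzymes of the ubiquitin-like modifier Isg15 in the set, Usp18 and Trim25, had log2 ratios above 0 at their brightest probe sets. Usp18 has only 1 probe set. Usp18, the protease that removes Isg15 from proteins and dampens signalling at the interferon receptor, read 641.1 in Phc2 L307R and 410.7 in wild type, 1.56-fold higher at a log2 ratio of 0.64. Trim25, the ubiquitin ligase that activates RIG-I and also conjugates Isg15, had 1372.2 in Phc2 L307R and 1058.4 in wild type, a log2 ratio of 0.37. Its further probe sets gave 0.47 and -0.06, so they differed. The mean over the probe sets of Trim25 was 0.26, within the technical SD. The ADP-ribosyltransferase family members Parp9 and Parp14, which are neighbours and act in interferon signalling, had 327.0 and 111.9 in Phc2 L307R and 279.9 and 71.9 in wild type. Their log2 ratios were 0.22 and, as a bound, at least 0.24, which was 0.64 without a floor and with the 40th percentile as floor.

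The remaining effectors ranged from a log2 ratio of -0.40 to one of 0.93. Ifi27, a small hydrophobic protein of organelle membranes, read 2395.9 in Phc2 L307R and 1253.7 in wild type, 1.91-fold higher at 0.93. Its second probe set read 1625.6 in Phc2 L307R and 1112.5 in wild type, a log2 ratio of 0.55 in the same direction. Rtp4, a receptor chaperone that is strongly induced by interferon, had 571.4 in Phc2 L307R and 364.7 in wild type, 1.57-fold higher at 0.65, while its second probe set lay below the floor on both arrays. Isg20, an exonuclease of RNA, had 142.2 in Phc2 L307R and 93.2 in wild type, just under the floor, so it was at least 1.5-fold higher at a log2 ratio of at least 0.58.

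Lower in Phc2 L307R was Cxcl10, the chemokine that attracts T cells through Cxcr3, with 127.0 in Phc2 L307R and 168.1 in wild type, a log2 ratio of -0.40. Its signals are low on both arrays, and it fell out of the measured genes with the floor at the 60th percentile. Bst2 (tetherin, which holds budding virions at the cell surface) had 734.3 in Phc2 L307R and 811.0 in wild type, a log2 ratio of -0.14 that is within the technical SD.

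The next 4 genes all lay within the technical SD. Eif2ak2, the kinase PKR that halts translation on sensing double-stranded RNA, had 604.1 in Phc2 L307R and 514.5 in wild type, a log2 ratio of 0.23, and its further probe sets gave 0.21 and -0.26. Ifi35, an interferon-induced leucine zipper protein, had 1556.8 in Phc2 L307R and 1619.8 in wild type (-0.06), and its other probe sets gave -0.07 and 0.15. Samd9l, which restrains viral replication and cell growth, had 402.3 in Phc2 L307R and 367.1 in wild type (0.13). Xaf1, a partner of the apoptosis inhibitor XIAP, had 659.8 in Phc2 L307R and 632.8 in wild type (0.06, below 0 in centred ratios).

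Rsad2 (viperin, which makes a chain-terminating nucleotide) and Cmpk2, a nucleotide kinase, are neighbours that are usually induced together, and neither was measured. At their probe sets of highest mean signal, Rsad2 read 72.1 in Phc2 L307R and 70.5 in wild type, and Cmpk2 read 83.7 in Phc2 L307R and 68.1 in wild type. The 6 genes below the floor on both arrays were thus Dhx58, Oas3, Mx1, Mx2, Rsad2 and Cmpk2, and signals there do not give a direction.

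**Figure D2:**
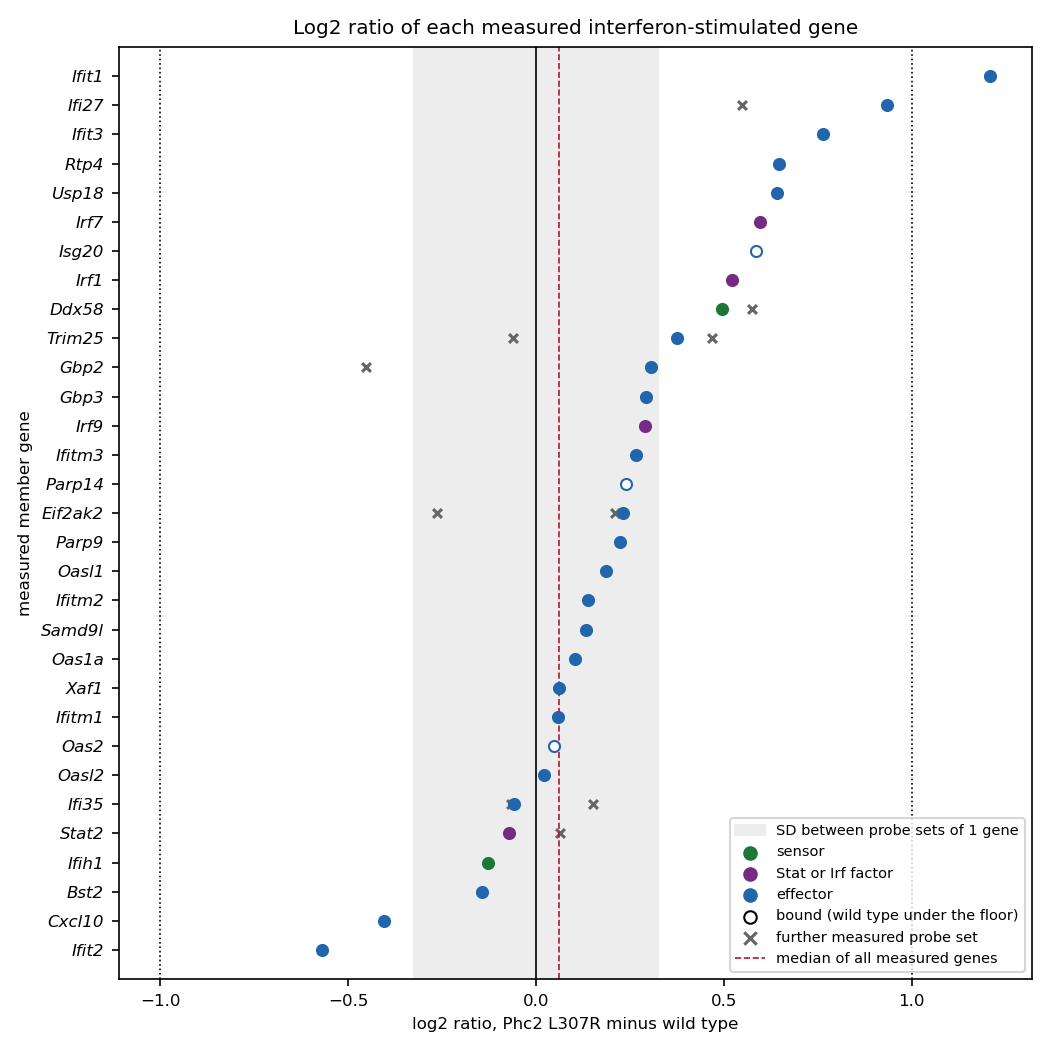
Log2 ratio, Phc2 L307R minus wild type, of the 31 measured genes (circles, coloured by role; open where wild type lay under the floor and the value is a bound), with further measured probe sets as crosses, the technical SD of 0.32 to each side of 0 in grey and dotted lines at 2-fold. Ifit1 alone lies past 2-fold, 19 genes lie in the grey band, and the crosses of Gbp2, Eif2ak2 and Trim25 lie on both sides of 0 with their circles.

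How far single genes can be read varied. A single measured probe set stands behind 24 of the 31 measured genes. The other 7 have more than one: in 2 genes, Ddx58 and Ifi27, they shared a direction, and in 5 genes, Eif2ak2, Gbp2, Ifi35, Stat2 and Trim25, they did not. The SD between their probe sets was 0.27. Of the 7 genes past 1.5-fold, only Ifi27 has a second measured probe set.

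Plotted against signal, the members did not gather at one level. With a loess of the ratio on the signal, which removes any trend of the ratio with brightness, Ifitm3 was at 0.16 and Ifitm2 at 0.07.

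**Figure D3:**
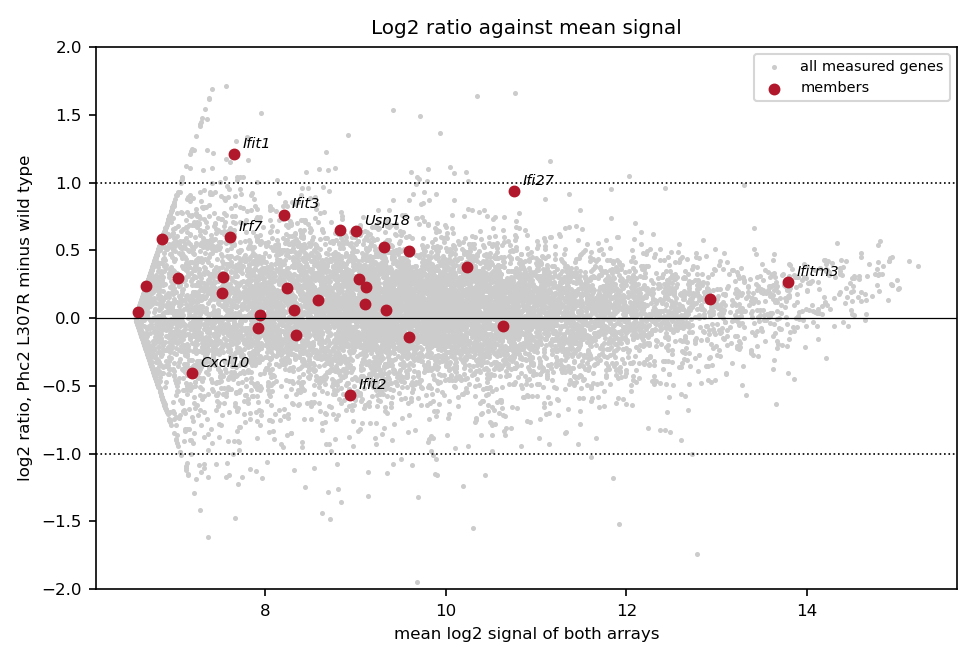
Log2 ratio, Phc2 L307R minus wild type, against the mean log2 signal of both arrays, signals under the floor raised to it, for the 31 measured members (red) and all 11408 measured genes (grey, 5 of them outside the axis). Ifit1 lies above the dotted 2-fold line at low signal, Ifi27 just under it at higher signal, and most other members lie inside the grey cloud, above 0.

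The rest of the pathway was described from lists written for this comparison. Of 10 interferon genes with a value, only Ifnz was measured, at 104.6 in Phc2 L307R and 79.4 in wild type, a log2 ratio of at least 0.14. Ifnb1, the first interferon that fibroblasts make on infection, read 57.8 in Phc2 L307R and 41.6 in wild type, and the gene for interferon gamma, Ifng, read 0.6 in Phc2 L307R and 15.6 in wild type, all below the floor.

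Receptors and signalling proteins were measured for 20 of 24 genes with a value, 17 above 0 and 3 below, against 59.1% of all measured genes above 0, with a median of 0.14 and none at least 2-fold apart. Ifnar1 and Ifnar2, the chains of the receptor for type I interferon, had log2 ratios of 0.25 and 0.20, and each also had a probe set below 0, at -0.27 or lower and at -0.18. The receptor kinases Jak1 and Tyk2 were at 0.09 and 0.31, and Irf3, which starts interferon production, was at 0.43 with further probe sets at -0.25, at least 0.38, and -0.10 or lower. The members of largest absolute ratio were Sting1, the adaptor of cytosolic DNA sensing, with 924.7 in Phc2 L307R and 504.5 in wild type at 0.87, then Irf5 at 0.56 (-0.29 at its other probe set), and Ifngr1, the ligand-binding chain of the interferon gamma receptor, at -0.50. Negative regulators of the pathway had a median of 0.05 over 13 measured genes, 7 above 0 and 6 below, which is 53.8% above 0 and near the 59.1% of all measured genes. Ptpn6 at 0.51, Cyld at -0.51, Tnfaip3 at -0.42 and Socs1 at 0.31 had the largest ratios among them.

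Interferon-stimulated genes outside the set gave values close to those of the set. Of 61 with a value, 44 were measured, 39 of them above 0, or 88.6% against 59.1% of all measured genes, with a median log2 ratio of 0.24, and none was at least 2-fold apart. At least 1.5-fold higher were 7 of the 44, against 4.2% of all measured genes, and none was 1.5-fold lower, against 3.25%. The largest were Tap1, a subunit of the peptide transporter for MHC class I, with 318.2 in Phc2 L307R and 168.0 in wild type at 0.92, Mov10, an RNA helicase, at 0.84, Tap2 at 0.70 and Trim30a at 0.67 or more. B2m, the light chain of MHC class I, had 14936.3 in Phc2 L307R and 10762.9 in wild type, a log2 ratio of 0.47. In centred ratios the median of these genes was 0.18, and 32 of the 44 lay above 0, where centring puts 50% of all measured genes. Trim30a and Psmb8, both among the 7 that were 1.5-fold higher, passed the floor in Phc2 L307R only. Their ratios could only be above 0. Of the 42 genes of this list above the floor on both arrays, 37 were above 0, against 59.1% of all such genes.

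**Figure D4:**
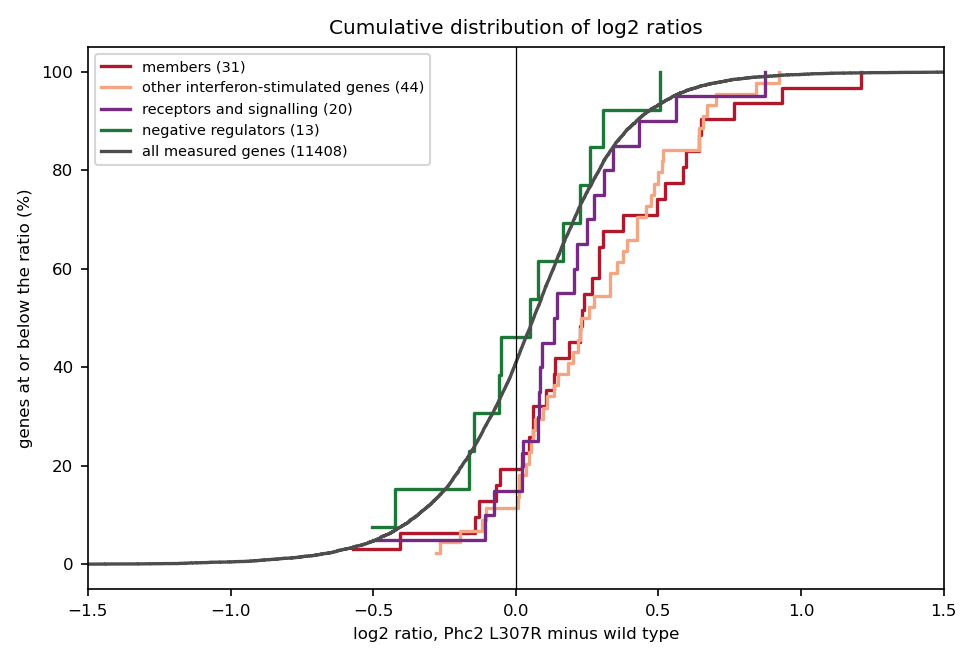
Cumulative share (%) of genes at or below each log2 ratio, Phc2 L307R minus wild type, for the 31 measured members, 44 other interferon-stimulated genes, 20 receptors and signalling genes, 13 negative regulators and all 11408 measured genes (19 of these lie outside the axis). The curves of both interferon-stimulated lists run to the right of that of all genes, with medians of 0.23 and 0.24 against 0.06, and that of the negative regulators runs near it.

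Leukocytes express many of these genes, and most macrophage markers lay below the floor on both arrays. Of 16 macrophage markers, 6 were measured and 4 of them lay above 0, which is 66.7% and near the 59.1% of all measured genes. The median log2 ratio of the 6 was 0.56, against 0.06 over all measured genes, so their median was higher though their share above 0 was near that of all. Laptm5, also on the chromosome of Phc2, read 256.0 in Phc2 L307R and 127.7 in wild type, the single 2-fold difference of the list at 1.00. The distance of Laptm5 from Phc2 was not counted. Csf1r, Lyz2 and Adgre1 had log2 ratios of 0.57, 0.57 and 0.55, and Cd68 and Cd14 had -0.11 and -0.41. Ptprc, the leukocyte common antigen, and C1qa, C1qb and C1qc lay below the floor on both arrays, where signals do not give a direction. Of the lymphocyte markers 1 of 7 was measured, Cd8a at 0.78, and of the markers of plasmacytoid dendritic cells 2 of 5 were, Tcf4 and Klk1, with Siglech below the floor. Cd8a and Klk1 were each read at a probe set with the suffix _x_at, whose probes can bind several transcripts. Laptm5, which has 5 probe sets, was read at a probe set with the suffix _s_at. The part of such cells in the differences was not tested. In bulk RNA, fewer cells of a type and less RNA per cell cannot be told apart.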

How the data were processed

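Biotin-labelled cRNA was made from total RNA, per the labels' protocols, and hybridised to 1 array per genotype. A linear intensity for each of 45101 probe sets and each array was deposited by the authors. It was made with MAS5 in Affymetrix Expression Console, per the submitters' processing notes, which give no versions. The sources used here do not give the scaling step or presence calls. Both arrays had a mean of 500.0 once 2% of values at either extreme were trimmed, so they were not scaled again.

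After 64 control probe sets were left out, 45037 remained, of which 34945 were listed with 1 gene symbol, 932 with several and 9160 with none. Members were matched by the platform symbol. A RefSeq gene table gave current symbols for 34741 of the probe sets with 1 symbol. The brightest probe set by mean log2 signal stood for a gene. Every member was named, and up to 4 genes of largest absolute log2 ratio of the lists of receptors and signalling, negative regulators and other interferon-stimulated genes. Ifnar1, Ifnar2, Jak1, Tyk2 and Irf3 were taken by role. B2m and the ligand and marker genes printed were chosen after their values were seen. Members and lists were chosen with earlier results of these data known. The number of arrays limits the precision, and no p-value was computed. The ratio step and the 2-fold call were tested on simulated arrays, with folds above 2 planted in genes well above the floor. That test did not cover smaller folds or genes near the floor. Alternatives were quantile normalization, loess (span 0.4, 3 iterations), centring, a floor at the 40th percentile and one at the 60th, unfloored ratios, the floor as pseudocount, the mean over probe sets, removal of _x_at and _s_at probe sets, and thresholds of 1.5-fold and 3-fold. Python 3.11.15, pandas 2.3.3, numpy 2.4.6 and statsmodels 0.14.6 were used.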

Additional observations from a re-analysis of the deposited data

How the results depend on the processing

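The median log2 ratio of the measured genes of the set lay between 0.17 (centred ratios) and 0.27 (no floor) under the alternatives. The number above 0 ranged from 21 in centred ratios to 28 with the floor at the 40th percentile, where 34 genes were measured. The counts past a fold depended more on the processing. Ifit1 was the only gene at least 2-fold higher, and 0 genes were when the floor was the 60th percentile, when the pseudocount was used or at a threshold of 3-fold, against 7 at 1.5-fold. The count at least 1.5-fold higher was 4 in centred ratios and 2 with the pseudocount, where 2.96% and 2.08% of all measured genes were, and 9 both without a floor and with it at the 40th percentile (5.76% and 5.53%), since Oas2 and Parp14 joined. Ifit2 was 1 gene at least 1.5-fold lower with loess and in centred ratios. Below minus the technical SD lay 1 gene under the 60th percentile floor and under the pseudocount. The pseudocount by construction shrinks ratios of low signals, and the higher floor leaves 26 genes; further causes were not tested. Restricting the set to genes above the floor on both arrays, chosen after the data were seen, gave 22 of 28 above 0 and a median of 0.23. Of all genes above the floor on both arrays 59.1% were above 0, with a median of 0.06. Of 274 single ratios under alternatives, 8 had the opposite sign, in 6 genes (Gbp2, Ifi35, Ifitm1, Oas2, Oasl2 and Xaf1). No paired analysis was possible because each genotype has 1 array. Low signals limit the reading: 6 genes had no direction, and 3 gave only a bound.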
